A study of Mus musculus with 12 samples.

Results

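Synaptophysin, a myelin protein, a muscle peptidase and 6 other transcripts better known outside the immune system stood higher in Foxp3-positive regulatory T cells (Treg) than in Foxp3-negative effector T cells (Teff) that arose from the same donor genotype. The 9 genes are Ncmap, Ky, Syp, Ecm1, Pdzk1ip1, Ephx1, Grb7, Trp53i11 and Gzf1, out of 12119 genes that could be tested. They were chosen from earlier results of these arrays, by a high value in Treg that had Blimp1 and by how that value held or fell in Treg that lacked it. The differences between Treg and Teff, and between the genotypes in Treg, are therefore given for them as a description, with no test. Only the genotype difference in Teff was tested, the contrast that the choice used least. The choice did use low Ctrl Teff values, which favours higher values in CKO Teff. The genes are measured by 14 of the 31641 probes, and each is represented by the probe with the highest mean over the 12 arrays. All 9 genes passed the filter on dim probes, which asks for a value above the array's own median on at least 3 arrays. Ky passed it through the 3 Ctrl Treg arrays alone.

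The arrays, 12 in number, measured 4 populations of CD4 T cells, with 3 arrays for each. Donor mice were C57BL/6, aged 8 to 12 weeks, carried a Foxp3 reporter (green fluorescent protein) and were Blimp1-sufficient (labelled Ctrl) or Blimp1-deficient (labelled CKO). Naive CD44-low cells of both donors, told apart by an allotype marker, were injected in equal numbers into RAG1-/- hosts, which lack their own T and B cells. After 6 to 8 weeks the cells were sorted by CD4, Foxp3 and allotype into Ctrl Treg (labelled Ctrl_pTreg), CKO Treg (Blimp1_CKO_pTreg), Ctrl Teff (Ctrl_Teff) and CKO Teff (Blimp1_CKO_Teff). All 4 groups share the reporter, the lymphocyte-deficient host, the pooling of spleen, mesenteric lymph node and large bowel lamina propria, and 4 h of restimulation with PMA and ionomycin. The sources used here do not give the promoter that drives the deletion, nor do they state that the arrays of a group come from separate animals. The p-values then measure the spread between these samples, which may be technical.

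Treg restrain immune responses, and Blimp1, encoded by Prdm1, is a zinc finger protein that acts mostly as a repressor and marks effector Treg in the gut. Genes typical of nerve, muscle or epithelium are sometimes transcribed in lymphocytes, and a transcript says nothing about whether the protein works there as in its usual tissue. In a bulk sample, fewer cells that express a gene and less RNA in each cell cannot be told apart.

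Values are log2 intensities as deposited, with array medians between 4.66 and 4.68, so a value near 4.7 is close to background and folds against it are compressed. Foxp3, the sorting gene, had group means of 8.02 and 8.05 in Ctrl and CKO Treg and 4.58 and 4.64 in Ctrl and CKO Teff. Prdm1 was higher, not lower, in the arrays labelled CKO (9.04 against 5.77 in Treg and 8.26 against 4.92 in Teff). Where that probe lies relative to the deletion is not given, so it does not check the labels, and Ctrl and CKO below mean the arrays so labelled. Same-numbered CKO and Ctrl arrays of 1 cell type deviated together, so differences are also given by pair. The SEs, intervals and p-values come from a fit without pairs, unless the replicate block is named. CKO Teff 1 and 2 stood apart by high basophil and mast cell markers and high natural killer cell markers, and values without them are given beside the results.

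RefSeq promoter windows (GRCm38.p6, the 250 bases before the transcript start) were on hand for 8 of the 9 genes, all but Grb7, and are shown first for the 4 genes whose Treg signal was at or near the Teff level in CKO. Capitals mark CG dinucleotides in Ncmap, Ky and Trp53i11 and an AP-1 motif in Ecm1. The Ncmap window is at chr4:135398228-135398477 (minus strand), the Ky window at chr9:102505888-102506137 (plus), the Trp53i11 window at chr2:93187298-93187547 (plus) and the Ecm1 window at chr3:95739570-95739819 (minus). The Pdzk1ip1 window, at chr4:115088458-115088707 (plus), is added because it holds the single match to a loose Blimp1 core, in capitals.
Ncmap: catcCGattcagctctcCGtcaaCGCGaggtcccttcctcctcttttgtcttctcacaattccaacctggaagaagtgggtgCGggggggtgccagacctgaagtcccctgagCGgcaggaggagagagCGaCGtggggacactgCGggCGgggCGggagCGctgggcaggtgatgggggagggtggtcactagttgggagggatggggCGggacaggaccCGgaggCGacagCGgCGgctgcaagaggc
Ky: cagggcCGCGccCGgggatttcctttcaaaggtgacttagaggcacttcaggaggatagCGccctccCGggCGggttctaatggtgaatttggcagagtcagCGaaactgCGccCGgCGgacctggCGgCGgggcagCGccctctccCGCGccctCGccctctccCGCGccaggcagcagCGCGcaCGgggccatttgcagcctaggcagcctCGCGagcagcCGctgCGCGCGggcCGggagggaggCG
Trp53i11: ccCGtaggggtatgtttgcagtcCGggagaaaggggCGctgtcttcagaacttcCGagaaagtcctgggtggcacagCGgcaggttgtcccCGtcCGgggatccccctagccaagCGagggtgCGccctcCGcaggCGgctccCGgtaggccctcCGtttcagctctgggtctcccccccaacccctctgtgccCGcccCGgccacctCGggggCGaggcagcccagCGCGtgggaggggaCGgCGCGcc
Ecm1: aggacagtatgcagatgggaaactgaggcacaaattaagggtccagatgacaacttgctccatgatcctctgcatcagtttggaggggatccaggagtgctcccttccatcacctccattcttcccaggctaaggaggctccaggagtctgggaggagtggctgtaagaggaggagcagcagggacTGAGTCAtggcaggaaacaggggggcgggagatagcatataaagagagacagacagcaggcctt
Pdzk1ip1: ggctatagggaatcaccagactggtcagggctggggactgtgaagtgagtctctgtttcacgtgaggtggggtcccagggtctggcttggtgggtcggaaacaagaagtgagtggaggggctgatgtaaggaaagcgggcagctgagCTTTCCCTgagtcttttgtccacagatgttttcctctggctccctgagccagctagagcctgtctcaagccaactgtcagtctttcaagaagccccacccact

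These 4 genes did not share a promoter type. Ky had 29 CG dinucleotides and a GC content of 71.2%, Trp53i11 22 and 71.2%, and Ncmap 17 and 66.0%, against medians of 6 and 52.4% over 32851 promoter windows. Ecm1 had 1, with a GC content of 54.0%. A second listed Ncmap start had 8 CG dinucleotides, Gzf1 had 18, Syp 11, and Pdzk1ip1 and Ephx1 3 each. Both strands were searched for motifs. The loose Blimp1 core AGNGAAAG, in which N is any base, is in 7.30% of all windows. Among the members it was met once, as CTTTCCCT starting 103 bases before the Pdzk1ip1 start, and the letters there read G at the free position on the other strand. The closer forms AGTGAAAG (1.09% of windows) and AGCGAAAG (0.411%), which overlap the loose form, were in none of the 9 member windows. The AP-1 motif TGACTCA (4.46%) was met once, as TGAGTCA starting 64 bases before the Ecm1 start. The forkhead core GTAAACA (3.17%) and the cyclic AMP response element TGACGTCA (1.55%) were in none. These are matches of letters in a short window and say nothing about binding.

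In Treg that had Blimp1, all 9 genes lay above Teff, and without Blimp1 the signal of 4 genes lay at or near the Ctrl Teff level while that of the other 5 lay above it. The share of the Ctrl difference that was left in CKO, taken as CKO Treg minus Ctrl Teff over Ctrl Treg minus Ctrl Teff on the log2 scale, was 15% for Ncmap and below 0 for Ky (−7.68%), Trp53i11 (−6.59%) and Ecm1 (−22.8%). It was 69.2% for Pdzk1ip1, 71.3% for Ephx1, 73.4% for Syp, 74.4% for Grb7 and 122% for Gzf1. With CKO Teff as the base for CKO Treg in place of Ctrl Teff, the share was 17% for Ncmap, −1.71% for Ky, −8.31% for Trp53i11 and −31.7% for Ecm1. On that base it was 10% for Pdzk1ip1, which changes sides, 57% for Grb7, 65.6% for Ephx1, 87.8% for Syp and 135% for Gzf1. Without CKO Teff 1 and 2, which leaves 1 array in that group, it was 46.3% for Pdzk1ip1, 39.9% for Grb7, 16.2% for Ecm1 and 18.1% for Trp53i11. The choice of members used these same arrays, so the shares describe them only.

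**Figure D1:**
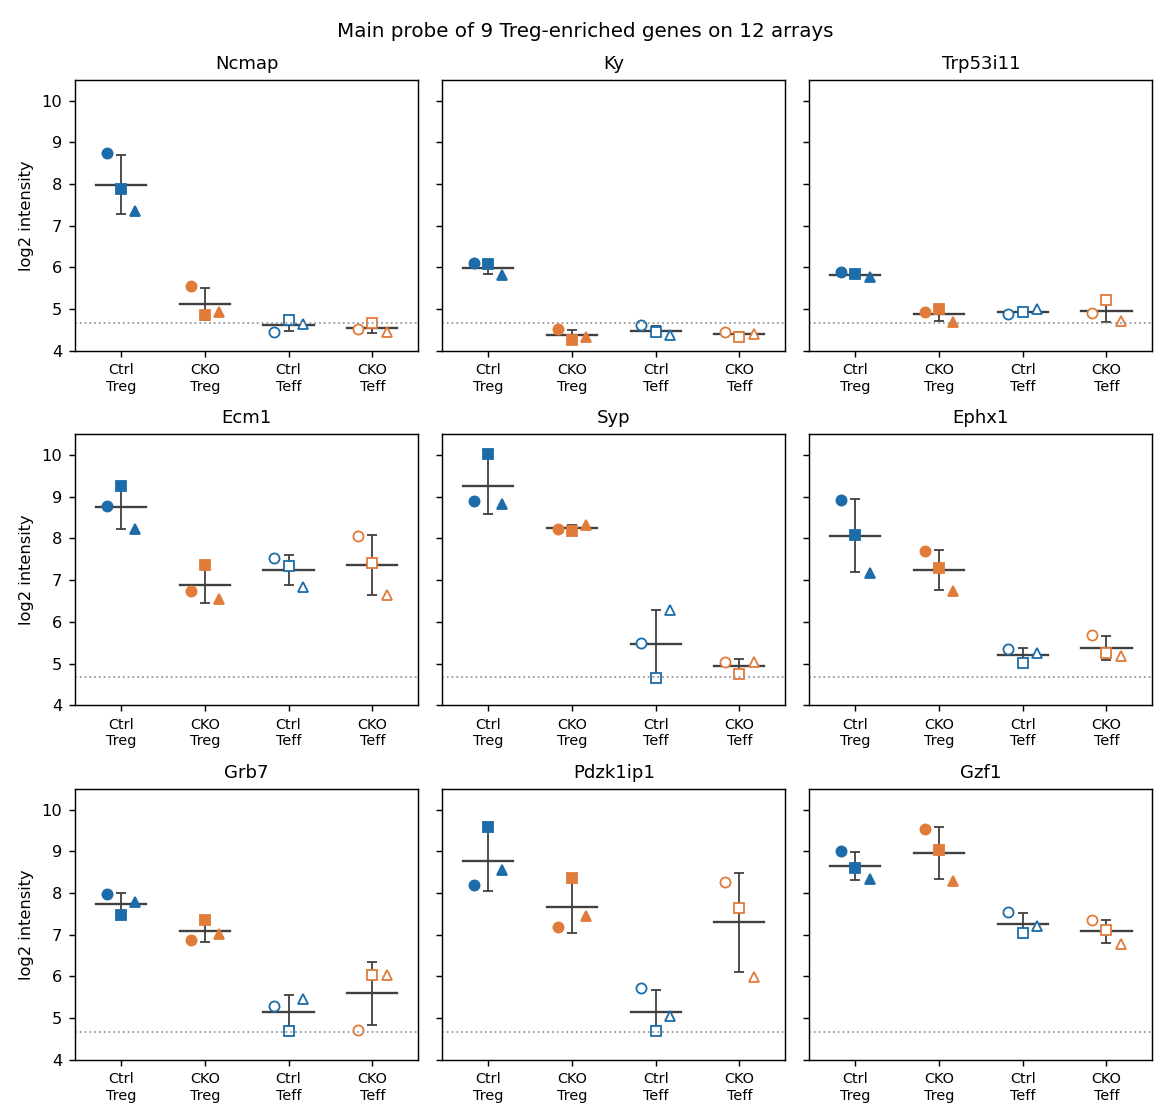
Log2 intensity of the main probe of each of the 9 genes on the 12 arrays, grouped as Ctrl Treg, CKO Treg, Ctrl Teff and CKO Teff. Symbols are arrays (circle 1, square 2, triangle 3), bars are group means, error bars are SD (n = 3) and the dotted line is the array median. Ncmap, Ky, Trp53i11 and Ecm1 drop to or near the Teff level in CKO Treg, while Syp, Ephx1, Grb7 and Gzf1 stay above it.

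Ncmap, which encodes a membrane protein of non-compact myelin in Schwann cells, had the largest genotype difference in Treg of the 9. Its log2 values were 8.74, 7.87 and 7.35 in Ctrl Treg 1, 2 and 3 (7.99 ± 0.70, SD, n = 3) and 5.56, 4.86 and 4.94 in CKO Treg (5.12 ± 0.38). They were 4.46, 4.75 and 4.64 in Ctrl Teff and 4.52, 4.67 and 4.45 in CKO Teff, all close to background. Ctrl Treg was the high group on every array, and its lowest array lay 1.79 above the highest CKO Treg array. The CKO minus Ctrl difference was −2.86 ± 0.30 (SE) in Treg, or 7.28-fold lower, with pair differences of −3.17, −3.01 and −2.41. The lowest CKO Treg array was 0.19 above the highest CKO Teff array, and the CKO Treg over Teff difference was 0.57, or 0.35 without CKO Treg 1.

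Ky, which encodes the kyphoscoliosis peptidase of the muscle cytoskeleton, was at the Teff level in CKO Treg. Its values were 6.10, 6.07 and 5.81 in Ctrl Treg (5.99 ± 0.16, SD, n = 3) and 4.52, 4.25 and 4.33 in CKO Treg (4.37 ± 0.14). In Teff they were 4.62, 4.45 and 4.38 in Ctrl and 4.45, 4.32 and 4.41 in CKO. The 9 arrays outside Ctrl Treg overlapped, all under their array medians, so Ky was seen above background in Ctrl Treg alone. The Treg difference was −1.63 ± 0.12 (SE), 3.08-fold, in pairs −1.57, −1.83 and −1.48. A second Ky probe gave 5.76, 5.88 and 5.58 in Ctrl Treg and 4.31, 4.56 and 4.39 in CKO Treg, a difference of −1.32. The last Ky probe stayed between 4.44 and 4.61 on every array, under every array median.

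Trp53i11, a membrane protein gene induced by p53, followed the same course from a lower level. Values were 5.89, 5.83 and 5.76 in Ctrl Treg (5.83 ± 0.07, SD, n = 3), 4.94, 5.0 and 4.68 in CKO Treg (4.87 ± 0.17), 4.88, 4.92 and 5.0 in Ctrl Teff and 4.91, 5.22 and 4.71 in CKO Teff. CKO Treg overlapped both Teff groups, and Ctrl Treg lay clear of CKO Treg by 0.77. The Treg difference was −0.96 ± 0.14 (SE), 1.94-fold, in pairs −0.96, −0.83 and −1.08. The other probe was dim, from 4.41 to 4.86, with a Treg difference of −0.10, and with the mean of both probes the Treg difference was −0.53.

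Ecm1, a secreted glycoprotein of the extracellular matrix that is also linked to the exit of T helper 2 cells from lymph nodes, differed from the 3 genes above in that Teff expressed it as well. Values were 8.79, 9.26 and 8.22 in Ctrl Treg (8.76 ± 0.52, SD, n = 3), 6.75, 7.37 and 6.54 in CKO Treg (6.89 ± 0.43), 7.54, 7.33 and 6.83 in Ctrl Teff (7.24 ± 0.36) and 8.07, 7.40 and 6.64 in CKO Teff (7.37 ± 0.72). Ctrl Treg was above all other arrays, and the other 3 groups overlapped well above background. The Treg difference was −1.87 ± 0.38 (SE), 3.65-fold, in pairs −2.04, −1.88 and −1.68. In CKO cells the Treg mean lay below the Teff mean (difference −0.48), though the arrays overlapped and the difference was 0.25 without CKO Teff 1 and 2. A second, dimmer Ecm1 probe had means of 5.29 in Ctrl Treg and 4.82 in CKO Treg, and with the mean of both probes the Treg difference was −1.17.

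**Figure D2:**
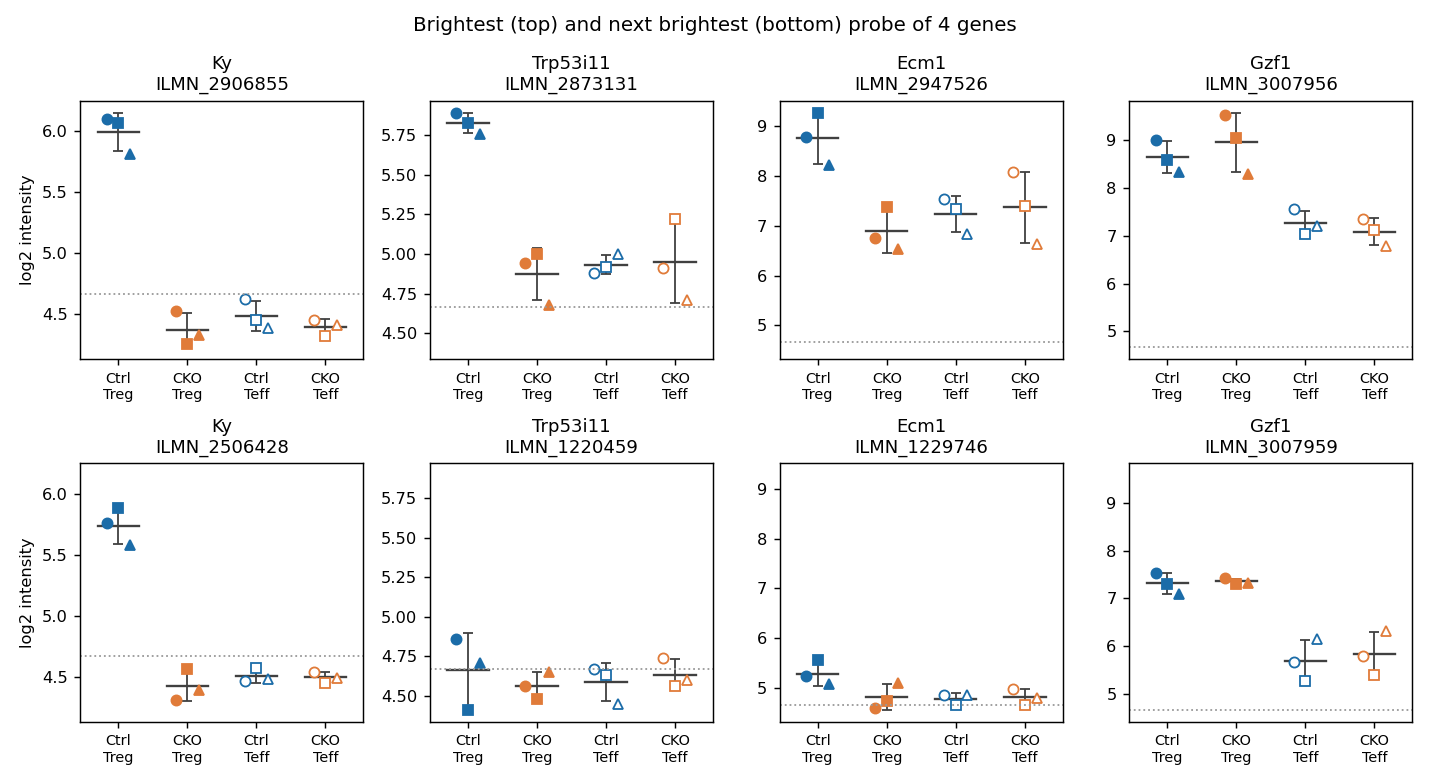
Log2 intensity of the brightest (top) and next brightest (bottom) probe of Ky, Trp53i11, Ecm1 and Gzf1, the 4 genes with more than 1 probe, by group and array (symbols, bars and error bars are arrays, means and SD with n = 3). The second Ky probe repeats the fall in CKO Treg, the second Trp53i11 probe stays near the array median (dotted line), and both Gzf1 probes keep their Treg level. The last Ky probe is not drawn.

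Syp, which encodes synaptophysin, a membrane protein of synaptic vesicles, had the largest Treg over Teff difference of the 9 genes in both genotypes. Values were 8.90, 10.02 and 8.82 in Ctrl Treg (9.25 ± 0.67, SD, n = 3), 8.22, 8.19 and 8.33 in CKO Treg (8.25 ± 0.07), 5.50, 4.65 and 6.28 in Ctrl Teff (5.48 ± 0.82) and 5.04, 4.74 and 5.03 in CKO Teff (4.94 ± 0.17). Every Treg array was above every Teff array, by at least 2.54 in Ctrl and 3.15 in CKO. The Treg over Teff difference was 3.77 (13.7-fold, rank 2 of 12119 genes) in Ctrl and 3.31 (9.93-fold, rank 3) in CKO. Syp was also lower in CKO than in Ctrl Treg, at −1.0 ± 0.39 (SE), in pairs −0.69, −1.83 and −0.49. That difference was −0.62 without Ctrl Treg 2, the highest array.

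Ephx1, the microsomal epoxide hydrolase of xenobiotic metabolism, stayed well above Teff as well. Values were 8.93, 8.09 and 7.18 in Ctrl Treg (8.07 ± 0.88, SD, n = 3), 7.70, 7.28 and 6.75 in CKO Treg (7.25 ± 0.48), 5.35, 5.02 and 5.26 in Ctrl Teff and 5.69, 5.25 and 5.18 in CKO Teff. The Treg genotypes overlapped, and the lowest CKO Treg array was 1.07 above the highest CKO Teff array. The Treg over Teff difference was 2.86 in Ctrl (7.24-fold) and 1.87 in CKO (3.67-fold). The CKO minus Ctrl difference in Treg was −0.82 ± 0.38 (SE), lower in 3 of 3 pairs (−1.23, −0.81 and −0.42). It was −0.39 without Ctrl Treg 1 and −1.27 without Ctrl Treg 3.

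Grb7, an SH2 domain adaptor that binds receptor tyrosine kinases such as ERBB2, kept 74.4% of its difference on the Ctrl Teff base. The share was 57% on the CKO Teff base, and 39.9% there without CKO Teff 1 and 2. Values were 7.97, 7.47 and 7.79 in Ctrl Treg (7.74 ± 0.25, SD, n = 3), 6.86, 7.36 and 7.01 in CKO Treg (7.08 ± 0.26), 5.30, 4.68 and 5.45 in Ctrl Teff and 4.72, 6.02 and 6.04 in CKO Teff. The Treg genotypes were parted by only 0.11, less than the SD of either group. The CKO minus Ctrl difference was −0.67 ± 0.34 (SE), in pairs −1.11, −0.11 and −0.77. Treg over Teff was 2.60 in Ctrl (6.08-fold) and 1.49 in CKO (2.80-fold).

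Gzf1, a zinc finger and BTB domain factor induced by the neurotrophic factor GDNF, was the 1 gene of the 9 that did not drop in CKO Treg. Values were 9.01, 8.59 and 8.34 in Ctrl Treg (8.65 ± 0.34, SD, n = 3), 9.53, 9.04 and 8.29 in CKO Treg (8.95 ± 0.62), 7.55, 7.04 and 7.20 in Ctrl Teff (7.26 ± 0.26) and 7.34, 7.12 and 6.78 in CKO Teff (7.08 ± 0.28). Treg lay above Teff without overlap in both genotypes, and CKO Treg overlapped Ctrl Treg. The Treg genotype difference was 0.31 ± 0.30 (SE), in pairs 0.52, 0.44 and −0.05, and 0.02 without CKO Treg 1. Treg over Teff was 1.38 in Ctrl and 1.87 in CKO. A second Gzf1 probe also lay higher in Treg than in Teff, with means of 7.32 and 7.35 in Ctrl and CKO Treg and 5.69 and 5.83 in Ctrl and CKO Teff.

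Pdzk1ip1, a small membrane protein known as MAP17 that binds the scaffold PDZK1 in kidney epithelium, was the 1 gene whose CKO Teff arrays all lay above Ctrl Teff. Values were 8.18, 9.59 and 8.54 in Ctrl Treg (8.77 ± 0.73, SD, n = 3), 7.18, 8.36 and 7.44 in CKO Treg (7.66 ± 0.62), 5.71, 4.7 and 5.05 in Ctrl Teff (5.15 ± 0.51) and 8.27, 7.64 and 5.98 in CKO Teff (7.30 ± 1.18). CKO Teff 1 and 2 reached the CKO Treg range, while CKO Teff 3 lay 0.27 above the highest Ctrl Teff array. In Treg the CKO minus Ctrl difference was −1.11 ± 0.58 (SE), in pairs −1.01, −1.24 and −1.10, and −0.70 without Ctrl Treg 2. Treg over Teff was 3.62 in Ctrl (12.3-fold, rank 3 of 12119) and 0.36 in CKO (rank 1579). The CKO difference was 1.68 without CKO Teff 1 and 2, −0.29 without CKO Teff 3 and 0.01 without CKO Treg 2. It was 0.85 without CKO Teff 1 and 0.60 without CKO Treg 1.

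**Figure D3:**
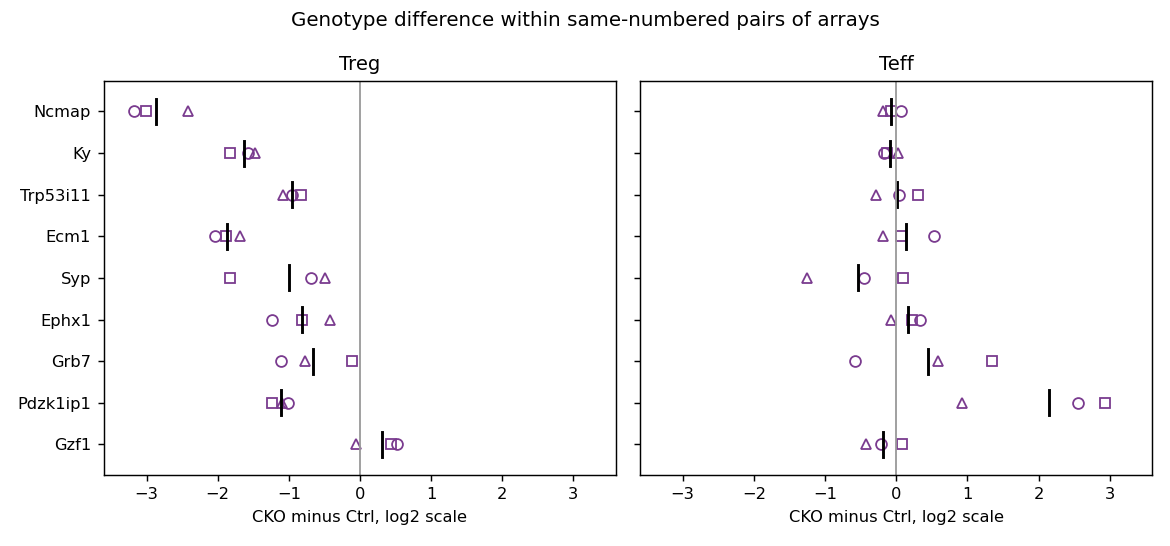
CKO minus Ctrl difference in log2 intensity for each pair of same-numbered arrays, in Treg (left panel) and in Teff (right panel), for the 9 genes. In Treg 8 genes are below 0 in each of 3 pairs, Gzf1 is not, and in Teff Pdzk1ip1 is above 0 in each of 3 pairs.

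Counted over the genes, CKO Treg was below Ctrl Treg without overlap for 6 of 9 (Ncmap, Ky, Syp, Ecm1, Grb7 and Trp53i11), against 6.36% of all 12119 genes tested. In each of 3 Treg pairs the CKO array was the lower for 8 of 9, against 18.2% of all genes. Ctrl Treg was above Ctrl Teff without overlap for 9 of 9, against 7.83% of all genes, and CKO Treg above CKO Teff for 5 of 9 (Ncmap, Syp, Ephx1, Grb7 and Gzf1), against 8.15%. The members were picked for these contrasts, so nothing is read from the counts. Without CKO Teff 1 and 2, the CKO Treg over Teff difference was 3.22 for Syp, 2.17 for Gzf1, 2.07 for Ephx1, 1.04 for Grb7, 0.67 for Ncmap, 0.16 for Trp53i11 and −0.04 for Ky. On the Ctrl Teff base the nearest genes on either side of the division were Ncmap (15% left) and Pdzk1ip1 (69.2% left).

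The test left to the members, the genotype difference in Teff, was passed by 0 of the 9 genes (limma, Benjamini-Hochberg adjusted p over 12119 genes), against 0.0165% of all genes, that is 2 genes. Ky could hardly show a fall there, being under the array median on all Teff arrays. The count of members at an unadjusted p under 0.05 was 1, Pdzk1ip1, against 4.17% of all genes. CKO Teff and Ctrl Teff did not overlap for 1 member of 9, again Pdzk1ip1, against 6.77% of all genes in either direction. Pdzk1ip1 was 2.14 ± 0.58 (SE) higher in CKO Teff, 4.42-fold, with a 95% interval from 0.86 to 3.42, an unadjusted p of 0.00373 and an adjusted p of 0.968 by limma. It was higher in 3 of 3 pairs (2.56, 2.94 and 0.93). The adjusted p by limma was 0.0568 with the replicate block and 0.0491 without CKO Teff 3. With CKO Teff 1 and 2 left out, the difference was 0.83.

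For the other 8 members the Teff difference ran from −0.54 to 0.45, each with an adjusted p of 1.00 by limma. The 95% interval was −0.74 to 0.60 for Ncmap, −0.36 to 0.18 for Ky and −0.30 to 0.33 for Trp53i11, all near background in Teff, where little fall could be seen. Ecm1, which Teff expressed, had an interval of −0.71 to 0.98. Without CKO Teff 1 and 2 its Teff difference was −0.59. The interval was −1.41 to 0.32 for Syp, −0.69 to 1.01 for Ephx1, −0.30 to 1.21 for Grb7 and −0.85 to 0.48 for Gzf1. Without CKO Teff 1 and 2 the difference was 0.90 for Grb7 and −0.49 for Gzf1.

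Pdzk1, which encodes the scaffold that Pdzk1ip1 is named for, lay on the Teff side. Its values were 4.83, 4.79 and 5.39 in Ctrl Treg (5.0 ± 0.33, SD, n = 3), 6.49, 5.49 and 5.78 in CKO Treg (5.92 ± 0.52), 8.01, 7.49 and 7.34 in Ctrl Teff (7.62 ± 0.35) and 7.40, 6.78 and 6.77 in CKO Teff (6.98 ± 0.36). Thus Ctrl Treg, high in Pdzk1ip1, was the group lowest in Pdzk1, and every Teff array exceeded every Treg array of its genotype. In Ctrl cells Pdzk1 was lower in Treg than in Teff, at −2.61 ± 0.30 (SE), which passed (limma, adjusted p = 0.00326, and 0.000622 to 0.0298 over 22 alternatives). In CKO cells the difference was −1.06 ± 0.30 (adjusted p = 0.177, and 0.0626 to 0.945 over its alternatives). The genotype difference was 0.92 ± 0.30 in Treg (adjusted p = 0.557) and −0.64 ± 0.30 in Teff (adjusted p = 1.00).

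Mean levels of basophil and mast cell markers and of CD8 and natural killer cell markers were highest within Teff on CKO Teff 1 and 2, as Pdzk1ip1 was. Within Ctrl Teff the order differed, with array 2 highest in the basophil and mast cell mean (6.00) and lowest in Pdzk1ip1 (4.7). The mean of 12 basophil and mast cell probes was 8.18, 7.87 and 5.34 on CKO Teff 1, 2 and 3, and 5.45, 6.00 and 4.93 on Ctrl Teff 1, 2 and 3. On the Treg arrays it lay between 5.0 and 5.56, while Pdzk1ip1 was high there. Of that list Ms4a2, Mcpt1, Mcpt2 and Tpsb2 lay within 0.5 of the array median on every array. The mean of 10 CD8 and natural killer cell probes was 7.52, 8.40 and 6.61 in CKO Teff and 6.45 to 6.62 in Ctrl Teff, with Cd8a, Ncr1 and Klrb1c near the median throughout. Myeloid probes averaged 6.84, 7.36 and 6.49 in CKO Teff and 5.58, 6.73 and 5.59 in Ctrl Teff. Neutrophil probes averaged 9.23, 9.68 and 7.23 in CKO Teff, but were highest on Ctrl Teff 2 (10.22). The part of these cells in the Teff difference was not tested.

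**Figure D4:**
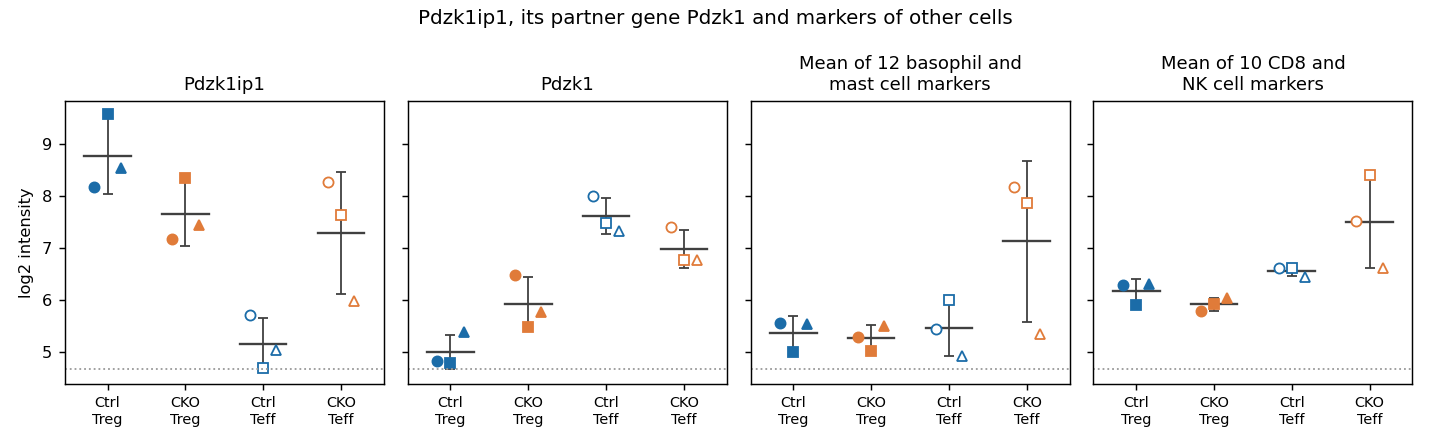
Log2 intensity of Pdzk1ip1 and Pdzk1 and the mean log2 intensity of the basophil and mast cell probes and of the CD8 and natural killer cell probes, by group and array (bars are means, error bars SD, n = 3). Pdzk1ip1 and both marker means are highest within Teff on CKO Teff 1 and 2, and Pdzk1 is higher in Teff than in Treg.

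Markers of the tissues in which these genes are usually studied stayed mostly at background. Of 13 epithelial genes, 8 (among them Epcam, Krt19, Vil1 and Muc2) lay within 0.5 of the array median on every array. Krt8, Krt18, Cdh1, Lgals4 and Car1 did not. In Ctrl Treg against Teff, Krt8 was at 0.66 ± 0.40 (SE, limma, adjusted p = 0.674) and Car1 at 0.77 ± 0.80 (adjusted p = 0.865). Krt18 was at −0.40 ± 0.23 (adjusted p = 0.651). The mean over the epithelial probes was 4.58 to 5.23 in Ctrl Treg, 4.60 to 5.05 in CKO Treg, 4.66 to 4.80 in Ctrl Teff and 4.60 to 4.75 in CKO Teff. The same background level held for 8 of 10 neural and enteroendocrine genes, among them Chga, Snap25, Gfap, S100b and Sox10, but not for Elavl4 and Syn1. It held for 10 of 12 muscle and stroma genes, but not for Actg2 and Pecam1. Actg2, a smooth muscle actin above background, was at 1.995 ± 0.62 (SE, limma, adjusted p = 0.228) in Ctrl Treg against Teff, 1.22 ± 0.62 (adjusted p = 0.541) in CKO and −1.24 ± 0.62 (adjusted p = 1.00) between genotypes in Treg. Pecam1 was at 1.71 ± 0.58 (SE) between genotypes in Teff. All 6 B and plasma cell genes with a probe lay within 0.5 of the array median on every array. The summed neural and enteroendocrine level, as a mean over probes, was 4.55 to 4.73 over all arrays, and that of muscle and stroma 4.66 to 5.0. The T cell list stood at 9.91 to 10.7. Neutrophil markers varied widely within each group, from 6.35 to 9.35 in Ctrl Treg, 6.06 to 8.48 in CKO Treg, 6.41 to 10.22 in Ctrl Teff and 7.23 to 9.68 in CKO Teff. Myeloid markers were less even than those of epithelium, at 6.00 to 6.56 in Ctrl Treg, 6.79 to 7.02 in CKO Treg, 5.58 to 6.73 in Ctrl Teff and 6.49 to 7.36 in CKO Teff. Their part in the member differences was not tested.

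Few functional relatives of the 9 genes passed the threshold. Those that missed it are not shown to be unmoved, and some had an unadjusted p under 0.05 by limma. The background is the share of all 12119 genes that passed, which was 0.099% (12 genes) between genotypes in Treg, 1.01% (123) between Treg and Teff in Ctrl and 0.355% (43) in CKO, all by limma. At an unadjusted p under 0.05 were 5.33% of all genes between genotypes in Treg, 4.17% between genotypes in Teff, 10.4% between Treg and Teff in Ctrl and 10.8% in CKO. The median log2 difference over all genes was 0.001, 0.01 and 0.03 in those comparisons and −0.02 between genotypes in Teff. Of the myelin genes listed beside Ncmap, 4 of 10 could be tested, and 0 passed in any of the 4 comparisons. Unadjusted p values under 0.05 numbered 0 in both genotype comparisons and 2 in both comparisons of Treg with Teff. Cnp, an enzyme of myelin, was at 1.12 ± 0.28 (SE, adjusted p = 0.118) and Mbp, myelin basic protein, at −1.43 ± 0.36 (adjusted p = 0.119) in Ctrl Treg against Teff, in opposite directions.

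Of 16 synaptic vesicle genes listed beside Syp 12 were tested, and 0 passed in the 4 comparisons by limma, with 0, 0, 1 and 1 at an unadjusted p under 0.05 (genotype in Treg and in Teff, then Treg against Teff, Ctrl before CKO). The medians over the list were 0.05 in Ctrl and 0.05 in CKO for Treg against Teff. Syngr2, a synaptogyrin outside neurons, was at 0.68 ± 0.20 (SE, adjusted p = 0.188) and Sypl, a synaptophysin-like protein, at 0.40 ± 0.18 (adjusted p = 0.488) in Ctrl. Vamp2, a vesicle fusion protein of the same list, was at −0.65. The transglutaminase and sarcomere genes listed beside Ky (9 of 12 tested) had 0 past the threshold, with 1, 3, 1 and 1 at an unadjusted p under 0.05, and the giant sarcomere protein gene Ttn at 1.03 ± 0.27 (adjusted p = 0.143) in Ctrl.

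The 16 p53 targets tested of 20 listed beside Trp53i11 had 0 past the threshold by limma, and 2, 1, 5 and 6 at an unadjusted p under 0.05. Their median between genotypes in Treg was −0.20, with the pro-apoptotic Bbc3 at −0.66 ± 0.20 (SE, adjusted p = 0.482) and the cell cycle inhibitor Cdkn1a at −0.89 ± 0.31 (adjusted p = 0.672). The median of that list between Treg and Teff in Ctrl was 0.11, and its members pointed both ways, as Ccng1 at 0.68 ± 0.23 (adjusted p = 0.291) and Plk2 at −1.16 ± 0.39. Of 8 binding partners and pathway genes listed beside Ecm1, 5 were tested and 0 passed, with 0, 0, 1 and 2 at an unadjusted p under 0.05. Il2ra, the interleukin 2 receptor alpha chain of Treg, was at 1.53 ± 0.32 (adjusted p = 0.0545) in Ctrl.

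The 14 xenobiotic metabolism genes tested of 16 beside Ephx1 had 0 past the threshold by limma and 1, 1, 0 and 1 at an unadjusted p under 0.05, with medians from −0.02 to 0.05 in the 4 comparisons. The GRB7 family and its receptors (6 of 10 tested) had 0 past the threshold and 0, 2, 0 and 2 at an unadjusted p under 0.05, with Grb10, a close relative of Grb7, at −0.53 ± 0.13 (SE, adjusted p = 0.123) in CKO Treg against Teff. In the PDZ list of Pdzk1ip1 (5 of 6 tested) Pdzk1 was the 1 gene that passed, lower in Ctrl Treg than in Teff, and 3, 1, 1 and 1 were at an unadjusted p under 0.05. Notch1, a receptor gene in that list, was at −1.0 ± 0.25 (adjusted p = 0.290) between genotypes in Treg and −1.04 ± 0.25 (adjusted p = 0.727) in Teff.

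Among the 9 BTB zinc finger genes tested of 11 listed beside Gzf1, Bcl6, a repressor expressed in follicular helper cells, was the 1 that passed. It was higher in CKO than in Ctrl Treg by 1.82 ± 0.25 (SE, limma, adjusted p = 0.0222) and lower in Ctrl Treg than in Ctrl Teff, at −2.0 ± 0.25 (adjusted p = 0.00530). Bcl6 missed the threshold in Treg when Ctrl Treg 1 (adjusted p = 0.144), Ctrl Treg 2 (0.128), CKO Treg 1 (0.160) or CKO Treg 2 (0.148) was left out, and kept its call between Treg and Teff in each of 22 alternatives. Gzf1 lay on the other side in Ctrl, higher in Treg than in Teff by 1.38. For comparison, in a Treg signature of 25 genes, 20 tested, 8 were higher in Ctrl Treg than Teff (median 1.52, with 20 of 20 above 0) and 2, Foxp3 and Itgae, in CKO (median 0.66), where Itgae lost its call without CKO Teff 1 (limma, adjusted p = 0.0527) or CKO Treg 1, 2 or 3 (0.0576 to 0.0924). Foxp3 in CKO lost its call with the mean of its probes (limma, adjusted p = 0.419) and with only the 2 groups compared (0.0516). In Ctrl, Ebi3 and Socs2 each lost theirs on leaving out any of 4 arrays (0.0560 to 0.120), namely Ctrl Treg 1, Ctrl Treg 2 and Ctrl Teff 1 for both, Ctrl Teff 2 for Socs2 and Ctrl Teff 3 for Ebi3. Ikzf2 lost its call without Ctrl Treg 2 (0.0524), Foxp3 with the mean of its probes (0.0949) and Tnfrsf18 with only the 2 groups compared (0.077), all in Ctrl by limma. Between genotypes in Treg 3 of them fell, with Il10 at −5.24, Gpr83 at −2.22 and Izumo1r at −1.48 (median over the list −0.61). Izumo1r lost that call with the mean of its probes (limma, adjusted p = 0.176). That list was drawn with earlier results of these arrays known and is not independent evidence of its direction.

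Transcripts with the most similar pattern over the 12 arrays were taken by Pearson's r, as a description over points that share the separation of the groups. The 9 genes themselves and genes with clone names were left out of this ranking. For Ncmap these were Rin2 (r = 0.969), Abi1 (0.962) and Gpr83 (0.961), a receptor enriched in Treg. For Ky they were Izumo1r (0.954), the folate receptor family member of Treg, Gpr83 (0.953) and Oit3 (0.944). Gpr83 had group means of 7.41, 5.19, 4.73 and 4.57 in Ctrl Treg, CKO Treg, Ctrl Teff and CKO Teff, the order seen for Ncmap. For Syp the most similar were Rarres2 (0.967), which encodes chemerin, Pcyt1b (0.958) and Hopx (0.957), a homeodomain-only factor. Hopx had means of 10.93, 10.31, 9.57 and 9.21 in the same order of groups. Ncmap and Ky correlated with each other at 0.964 and Ncmap with Syp at 0.770 over the 12 arrays.

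Genes next to the 9 on the chromosome, 36 by RefSeq order (GRCm38.p6), were tested where they passed the filter (22), and 0 passed in any of the 4 comparisons by limma. Unadjusted p values under 0.05 numbered 3 and 2 between genotypes in Treg and Teff and 3 and 2 between Treg and Teff in Ctrl and CKO, of 22 genes, beside the shares of all genes given above. Rcan3, a calcineurin regulator beside Ncmap, was at −0.64 ± 0.18 (SE, adjusted p = 0.444) between genotypes in Treg, −0.67 ± 0.18 (adjusted p = 0.968) in Teff and 0.67 ± 0.18 (adjusted p = 0.155) in Ctrl Treg against Teff. It passed in Treg with the replicate block (−0.64, adjusted p = 0.0459). Ikzf3, the lymphoid factor Aiolos beside Grb7, was at 0.04 ± 0.27 (adjusted p = 0.990) in Ctrl Treg against Teff, where Grb7 was at 2.60.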

How the data were processed

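Biotin-labelled cRNA made from total RNA of the sorted cells was hybridised to 12 Illumina mouse arrays. The deposited values are log2 intensities, as their range shows, and the authors' notes name GenomeStudio and limma 3.30.11 (per the submitters' processing notes). The sources used here do not give the background correction or normalization, and the values were used as deposited. A platform annotation gave 1 gene symbol to 28197 of 31641 probes, several to 5 and none to 3439. Symbols were updated by gene ID where possible (28180 probes, 0 changed).

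Probes above their array's median on at least 3 of 12 arrays were kept, and the brightest kept probe stood for its gene, which gave 12119 genes. All were fitted together in R 4.3.3 by limma's lmFit and eBayes, version 3.58.1 (1 mean per group, two-sided, Benjamini-Hochberg adjusted p under 0.05 taken as passing, SE from the fit). The fit was run on simulated data with independent arrays. Since same-numbered arrays here deviated together, that run checks the code and does not measure the power in these data. The members, gene lists, marker lists and tests were chosen with earlier results of these data known.

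Named genes were the 9 members, up to 4 genes per list with the smallest p, neighbouring genes that passed, and Prdm1 and Foxp3. The 3 genes most correlated with Ncmap, Ky and Syp, with members and clone names left out, were named too. Other neighbours and list genes were named after their values were seen. Neighbours were the 2 nearest protein-coding genes on each side. Marker levels are means of log2 values over a list's probes.

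Residuals of same-numbered CKO and Ctrl arrays correlated at 0.519 to 0.589 in Treg and 0.348 to 0.737 in Teff, so pair differences are given. The main fit left the pairs out, and they entered only the alternatives with a replicate block. No label says that same-numbered arrays come from the same host. Between Treg and Teff Ctrl arrays gave −0.266 to 0.265 and CKO arrays 0.0413 to 0.325. Only some of these correlated best with their own number, so it is unclear whether the numbers pair Treg with Teff. The number of arrays limits the precision. Alternatives changed the normalization, the probe filter, the probe summary, the eBayes settings, array weights, the replicate block, the arrays fitted and each array in turn. Leaving out CKO Teff 1 and 2 was added after seeing the data and leaves 1 array in that group.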

Additional observations from a re-analysis of the deposited data

Results flagged for a closer look

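The CKO minus Ctrl difference of Pdzk1ip1 had opposite signs in the cell types. The CKO array was the lower in each of 3 Treg pairs (−1.01, −1.24 and −1.10) and the higher in each of 3 Teff pairs (2.56, 2.94 and 0.93). The difference in Teff minus that in Treg was 3.26 on the log2 scale, and 1.94 with CKO Teff 3 as the only CKO Teff array. Basophil and mast cell probes averaged 8.18 and 7.87 on CKO Teff 1 and 2 against 5.34 on CKO Teff 3, and CD8 and natural killer cell probes 7.52 and 8.40 against 6.61. Neutrophil probes averaged 9.23 and 9.68 against 7.23, and myeloid probes 6.84 and 7.36 against 6.49. Their part was not tested. The difference between the cell types was not tested either, since the choice of the gene used its Treg values.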

How the results depend on the processing

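Among the 9 genes the count past the threshold for genotype in Teff was 0, and 0 to 1 when 1 array was left out (1 without CKO Teff 3, Pdzk1ip1). For Pdzk1ip1 the difference ran from 0.83 to 2.80 over 23 alternatives, with adjusted p from 0.0491 to 1.00 by limma. With the replicate block its adjusted p was 0.0568 as a fixed term and 0.0911 as a random one, so pairing the arrays did not change that call. Signs near 0 turned for Ecm1 in Teff (−0.22 to 0.50 leaving out 1 array, −0.59 without CKO Teff 1 and 2), for Trp53i11 (−0.12 to 0.13, and −0.22) and for Ephx1 (−0.031 without CKO Teff 1 and 2). Over all genes 2 passed in Teff. The count was 1 with the 75th percentile filter, and 12 and 8 with a fixed and a random replicate block. It was 0 with only the 2 groups compared, and 0 to 52 leaving out 1 array (52 without CKO Teff 3). Among list genes 4 passed for genotype in Treg (10 and 8 with the fixed and the random replicate block) and 0 in Teff (2 and 1, and 0 to 1 leaving out 1 array). For Treg against Teff 10 passed in Ctrl, within 1.5 times under each alternative run. In CKO 2 passed, with 4 under the 75th percentile filter, 1 with the mean of a gene's probes and 4 with trend and robust settings. That count was 8 with array weights, 0 with only the 2 groups compared, and 1 to 6 leaving out 1 array. Among neighbouring genes 0 passed, with 2 under array weights (Rcan3 and Clic4), 1 with either replicate block (Rcan3) and 0 to 1 leaving out 1 array. The cause of these shifts was not tested. The 27 described member differences moved by more than the group SD in 5 of 597 alternatives, and the Treg genotype difference of each of the 9 genes kept its sign in all of its own. Ky had no value under the 75th percentile filter. The fixed block could not be fitted for Treg against Teff, since it absorbs the cell type. Signals of Ky and Ncmap in Teff were near background, which limits how far a fall could be measured.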
